A study of Mus musculus with 2 samples.

Results

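Expression of claudin genes was followed in the ureter of E14.5 mouse embryos and compared between a mutant lacking Smad4 in the ureteric mesenchyme and a control. Of 10 claudin genes listed for this account (Cldn1, Cldn3 to Cldn8 and Cldn10 to Cldn12), 9 had at least 1 probe under exactly that gene name on both arrays. No probe is named Cldn10. The single probe named Cldn10a matches RefSeq's Cldn10 by accession and is given with the claudins outside the list. The 9 genes had 10 probes, out of 25 probes for 23 claudin names and 39429 probes in all, and each was bright enough to enter the comparison of 21243 genes. The 10 genes were chosen on results of this same mutant and control comparison, measured as the array ratios given below, and how far each ratio weighed in the choice is not recorded. All ratios of these genes are therefore descriptions, and no test of them is used as support.

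Each of 2 arrays paired a mutant and a control RNA in different dyes. The mutants were Tbx18(cre/+);Smad4(fl/fl) and the controls Tbx18(+/+);Smad4(fl/+), both of the NMRI strain, so all embryos carried a floxed Smad4 allele and only the mutants carried Cre. Array 1 held a female pair with the labelled control in red, and array 2 a male pair with the labelled Smad4cKO in red. Sex and dye orientation thus changed together. Cre is made from the Tbx18 locus, which is active in the mesenchyme around the ureteric epithelium, so an effect of the changed Tbx18 allele cannot be told apart from that of Smad4 loss. Neither the number of embryos behind each RNA nor their litters are stated. Errors therefore rest only on differences between these 2 arrays, mostly pooled over all genes tested, and not on known numbers of embryos or litters.

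Claudins are membrane proteins that span the membrane several times and build the strands of tight junctions, the seals between neighbouring epithelial or endothelial cells. Their extracellular loops meet those of claudins on the next cell. The set of claudins a cell makes decides whether the junction acts as a barrier or lets particular ions pass between cells. In the urinary tract the urothelium, the epithelium lining the ureter, relies on such junctions to keep urine out of the wall. The urothelium does not descend from the Tbx18-expressing mesenchyme.

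All ratios are log2 of the channel labelled Smad4cKO over the channel labelled control, as the dye labels give it. The loci that differ between the genotypes did not settle this direction: Smad4 gave -0.69 and -0.14 on arrays 1 and 2, Tbx18 0.07 and 0.81. Id1, a known target of BMP signalling through SMAD4, was brighter in the channel labelled Smad4cKO (1.14 and 1.19). So was the smooth muscle myosin gene Myh11 (2.08 and 2.66). Loss of Smad4 would lower a gene that BMP signalling switches on, so Id1 ran against the dye labels, while Smad4 itself ran with them. Whether the labels are exchanged was not tested. In the authors' deposited table, whose titles name the mutant first, the ratio runs the opposite way: Cldn1 has a signed fold of 2.85 and 2.64 there, a ratio of control to Smad4cKO if the dyes are as labelled. Should both arrays have their dyes the other way round, each sign below would turn with its size kept. Between 68.3% and 70.3% of spots were well above background in each channel, and 0 non-control spots were saturated. In all 4 channels 22 of 22 urothelial and epithelial markers and 12 of 12 mesenchymal and smooth muscle markers were well above background. So were 13 of 13 tested endothelial, 9 of 9 nephric, 6 of 6 macrophage, 9 of 10 neuronal and glial and 4 of 5 tested mesothelial markers. Tested markers were already well above background in 1 labelled group on both arrays, so that filter largely set these counts. Detection alone does not set the ureter apart from other tissue.

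Cldn1 had the ratio farthest from 0. It encodes claudin-1, a barrier-forming claudin of epidermis and many other epithelia. Its processed signal (background-subtracted and dye-normalized by the scanner software, in arbitrary units) was 89.7 in the channel labelled Smad4cKO and 256.5 in the labelled control of the female pair. In the male pair the signals were 99.9 and 265.4. Both labelled control channels lay above both labelled Smad4cKO channels, and the channels of a group lay close together in spite of their different dyes. The log2 ratio was -1.11 on array 1 and -1.02 on array 2, a mean of -1.06 ± 0.13 (limma's moderated SE, n = 2), or 2.09-fold dimmer in the channel labelled Smad4cKO. With a normexp offset of 10 in place of 50 the mean log2 ratio was -1.22. From the scanner's processed signals, which also differ in background correction and dye normalization, it was -1.46. Cldn1 was the dimmest of the 10 member probes against its own background: its mean signal was 4.25 to 11.4 times the local background, although well above it in 4 of 4 channels.

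**Figure D1:**
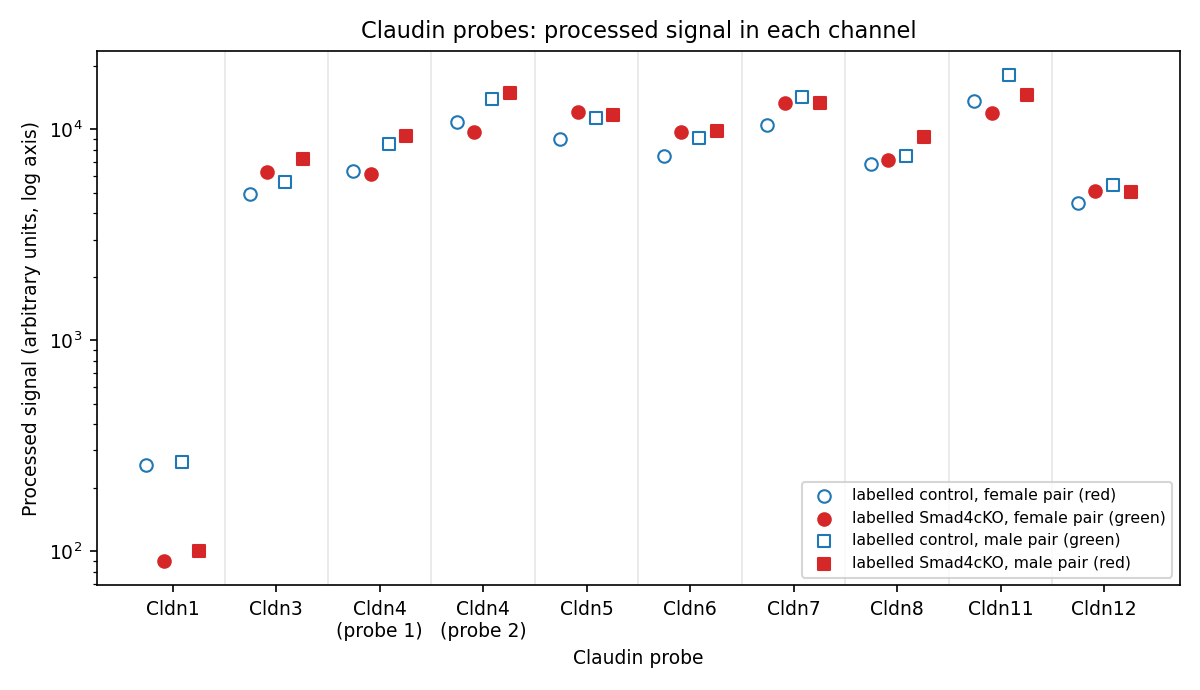
Processed signal (arbitrary units, log axis) of the 10 probes of 9 claudins in each of the 4 channels, blue open symbols for the labelled control and red filled symbols for the labelled Smad4cKO, circles for the female and squares for the male pair. Only Cldn1 shows both labelled control channels (256.5 and 265.4) far above both labelled Smad4cKO channels (89.7 and 99.9); heights of different probes are not comparable.

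Among all 21243 genes, Cldn1 had the 32nd lowest mean ratio, which would be the 32nd highest if the dyes were the other way round. Only 1 other gene, listed without a symbol, lay within 0.1 of Cldn1 on both arrays, against 136 genes for Cldn3 and 3064 for Cldn4. The probe of Cldn1 lies on chromosome 16, 26357372 to 26357431 (mm9, minus strand). It shares at most 8 bases in a row with any other claudin probe, and 0 other probes on the array share 20 bases with it.

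In whole ureters, fewer cells of a type and less RNA per cell cannot be told apart. Of 10 neuronal and glial markers, 9 had negative ratios on both arrays, as Cldn1 did (median -0.43, with -0.58 on array 1 and -0.27 on array 2), led by the neuronal filament genes Prph (-1.02 and -0.69) and Nefl (-1.06 and -0.64). The glial gene S100b was the exception (0.69 and 0.58). The summed processed signal of the 10 genes on arrays 1 and 2 was 9347 and 10510 in the labelled Smad4cKO channels. In the labelled control channels it was 12630 and 12170. Of 5 tested mesothelial markers 2 had negative ratios on both arrays, Wt1 at -1.14 and -0.81 and Muc16 at -0.91 and -0.11, while Upk3b, Msln and Krt19 changed sign. Their summed signal was 32170 in the channel labelled Smad4cKO against 26180 on array 1, and 28370 against 36180 on array 2, so its direction differed between the arrays. Lrrn4 was too dim to test. No tested marker of either list was at 0, and their part in the ratio of Cldn1 was not tested.

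The sequences around the start sites of Cldn1 and of the neighbours Cldn3 and Cldn4 are shown because these members differ in their ratios. Cldn1 was dimmer, Cldn4 lay near 0 and Cldn3 was brighter. They are RefSeq promoter windows on GRCm38.p6, 250 bases before to 50 after the start site, read 5′ to 3′ on the gene's strand. The window of Cldn1 is chr16:26371790-26372089 (minus strand), that of Cldn3 chr5:134985964-134986263 (plus strand) and that of Cldn4 chr5:134946885-134947184 (minus strand). Capitals mark matches, on either strand, to any of 6 motifs. CACCTG is an E-box that Snail and Zeb repressors bind, and GGGCGG is the GC box. AACCNGTT is a motif of Grainyhead-like factors. GTCTAGAC is a SMAD motif. The TATA box was searched as TATAAA and the AP-1 motif as TGANTCA.
Cldn1: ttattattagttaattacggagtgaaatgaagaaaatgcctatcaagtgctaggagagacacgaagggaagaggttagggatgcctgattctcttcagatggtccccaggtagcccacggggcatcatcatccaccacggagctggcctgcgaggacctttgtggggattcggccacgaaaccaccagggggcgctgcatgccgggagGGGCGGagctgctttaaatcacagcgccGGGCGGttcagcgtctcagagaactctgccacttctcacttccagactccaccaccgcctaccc
Cldn3: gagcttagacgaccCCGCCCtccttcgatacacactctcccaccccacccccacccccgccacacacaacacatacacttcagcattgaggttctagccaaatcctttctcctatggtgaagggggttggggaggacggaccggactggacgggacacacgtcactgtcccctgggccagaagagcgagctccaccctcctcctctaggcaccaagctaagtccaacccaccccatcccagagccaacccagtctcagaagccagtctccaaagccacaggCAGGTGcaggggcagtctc
Cldn4: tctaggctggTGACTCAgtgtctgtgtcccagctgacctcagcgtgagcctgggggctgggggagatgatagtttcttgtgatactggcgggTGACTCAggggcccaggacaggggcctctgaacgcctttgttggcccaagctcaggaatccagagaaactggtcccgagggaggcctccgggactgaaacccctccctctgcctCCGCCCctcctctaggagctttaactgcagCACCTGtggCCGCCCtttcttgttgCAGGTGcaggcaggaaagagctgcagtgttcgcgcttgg

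Cldn1 held 2 GC boxes and no other of these motifs in its window. Cldn3 held 1 E-box and 1 GC box, and Cldn4 held 2 E-boxes, 2 GC boxes and 2 AP-1 motifs. RefSeq windows were found for 9 of the 10 listed claudins, 13 windows in all, with Cldn8 missing. The E-box was in 4 of 13 windows (Cldn3, Cldn4, Cldn6 and Cldn7), against 20.2% of all 32851 promoter windows. The GC box was in 10 of 13, from 9 claudins, against 35.7% of all. Claudins with several start sites have several windows, so these counts are not independent. The same GC box of Cldn12 was counted in overlapping windows, at -73 and -13 from their start sites. The Grainyhead-like motif was in 1 window, that of Cldn5, against 2.09%, and TGANTCA in 1, against 7.81%. TATAAA (13.6% of all windows) and GTCTAGAC (0.213%) were in 0. The median GC content was 60.7% over the 13 windows and 52.7% over all. A match describes letters and not a bound site.

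Among the claudins typical of urinary epithelium, Cldn3 had a positive ratio on both arrays. Claudin-3 is a sealing claudin of simple and transitional epithelia. Its signal was 6280 against 4955 in the labelled control of the female pair, and 7239 against 5612 in the male pair. Both labelled Smad4cKO channels lay above both labelled control channels. The log2 ratio was 0.38 and 0.30 on the arrays (mean 0.34 ± 0.13, SE, n = 2), or 1.27-fold.

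Cldn4, whose product often occurs with claudin-3 and like it binds the Clostridium perfringens enterotoxin, did not keep its direction between the arrays. Its brighter probe gave 9686 in the channel labelled Smad4cKO against 10790 in the female pair, and 14850 against 13860 in the male pair. The log2 ratios were -0.10 and 0.06 (mean -0.02 ± 0.13). Its other probe gave -0.09 and 0.16, the same pair of signs. The signals followed the array more than the labelled group, with both male channels above both female channels at each probe.

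Cldn7, a claudin of the basolateral membrane as well as of tight junctions, gave 13360 against 10440 in the labelled control of the female pair and 13290 against 14220 in the male pair. Its log2 ratios were 0.40 and -0.13 (mean 0.14 ± 0.17), so its direction differed between the arrays. Cldn8, a claudin of the kidney's collecting duct and distal tubule, gave 7132 against 6816 and 9175 against 7511. Its log2 ratios were 0.06 and 0.28 (mean 0.17 ± 0.14), on the same side on both arrays, but with median centring in place of loess they were -0.18 and 0.56.

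These ratios stood among those of other epithelial markers. Of the 22 epithelial markers, which include Cldn3, Cldn4 and Cldn7, 11 were brighter and 1 dimmer on both arrays, and 10 changed sign. Without the 3 claudins the median was 0.16 over 19 genes, against 0.0047 over all genes tested, but only 0.12 on array 1 and 0.04 on array 2 taken alone. E-cadherin's gene Cdh1 gave 0.24 and 0.28, the regulator gene Ovol1 0.19 and 0.15, and the basal keratin gene Krt5 0.09 and 0.42. Upk3a, which encodes a uroplakin of mature urothelium, was the dimmer one (-0.17 and -0.45). The keratin genes Krt7 (0.59 and -0.21), Krt8 (0.40 and -0.14), Krt18 (0.50 and -0.10) and Krt19 (0.53 and -0.20) changed sign. Like Cldn7, they were positive on array 1 and negative on array 2. Foxa1 (-0.12 and 0.52) and Upk2 (-0.10 and 0.09) changed sign the other way, as Cldn4 did. The summed signal of the 22 genes was 199900 and 191100 in the labelled Smad4cKO channels and 151600 and 212200 in the labelled control channels. These ranges overlap, and the part of epithelial content in the claudin ratios was not tested.

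Cldn5 and Cldn6 had similar ratios. Cldn5 encodes the main claudin of endothelium, the lining of blood vessels. It gave signals of 12150 against 8985 in the female pair and 11730 against 11290 in the male pair, with log2 ratios of 0.44 and 0.08 (mean 0.26 ± 0.15). Both labelled Smad4cKO channels lay above both labelled control channels, by little in the male pair. Of the other 12 tested endothelial markers 5 were brighter and 1 dimmer on both arrays, with a median of 0.11. Ramp2, part of the adrenomedullin receptor, gave 0.63 and 0.48, and Egfl7 gave -0.23 and -0.22. The summed signal of all 13 tested endothelial markers, Cldn5 itself included, was 75910 and 81440 in the labelled Smad4cKO channels. In the labelled control channels it was 67700 and 75630, with Erg too dim to test. The part of endothelial content in the ratio of Cldn5 was not tested.

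Cldn6, a claudin of embryonic epithelia that falls after birth in many tissues, gave 9669 against 7454 and 9808 against 9095. Its log2 ratios were 0.40 and 0.11 (mean 0.25 ± 0.14). The labelled Smad4cKO channels were again the higher ones on both arrays.

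Cldn11 was the other member dimmer on both arrays. Claudin-11 forms the tight junctions of myelin and of Sertoli cells in the testis. Its signals were 11970 in the channel labelled Smad4cKO against 13630 in the female pair, and 14590 against 18090 in the male pair, so the groups overlapped across arrays. The log2 ratios were -0.21 and -0.24 (mean -0.23 ± 0.13), and with median centring they were -0.57 and 0.18. The glial regulator gene Sox10 (-0.24 and -0.27), from the list of 10 neuronal and glial markers described above, had ratios of the same sign. The part of these markers in the ratio of Cldn11 was not tested.

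Cldn12, a widely made claudin that lacks the usual C-terminal binding motif for junction scaffolds, gave 5117 against 4461 in the female pair and 5030 against 5454 in the male pair. Its log2 ratios were 0.22 and -0.12 (mean 0.05 ± 0.15), opposite on the arrays.

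**Figure D2:**
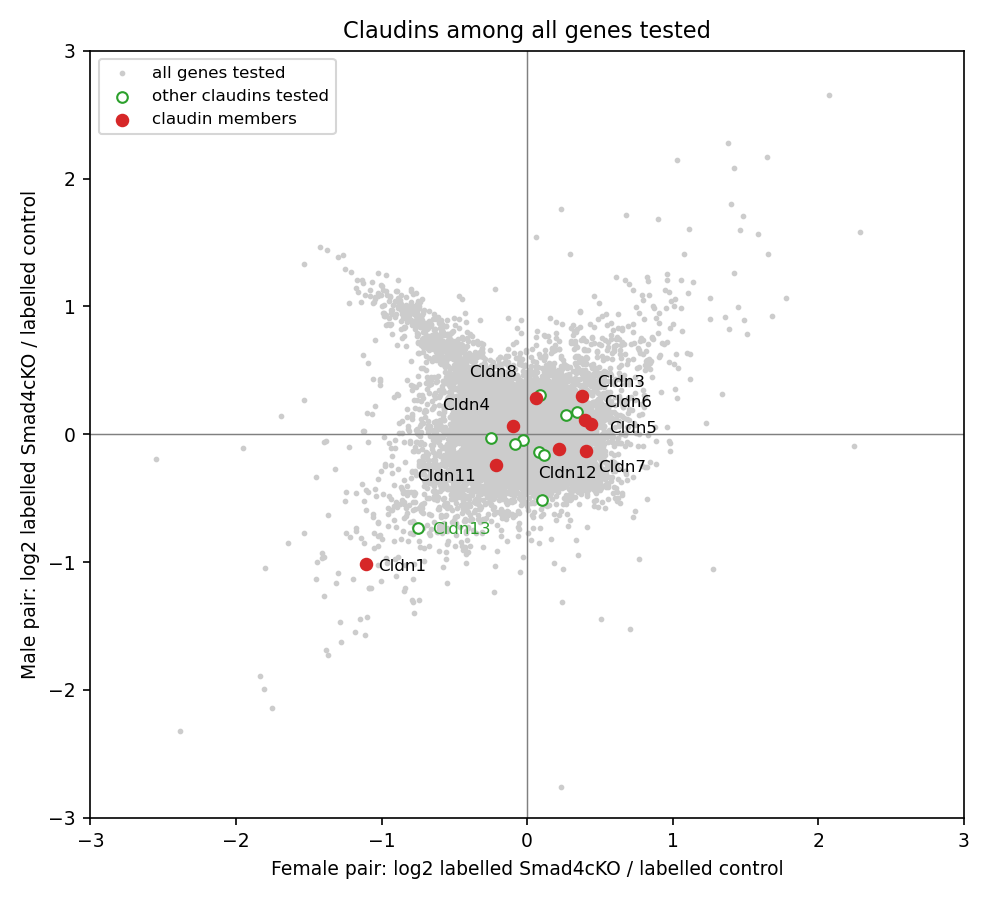
Log2 ratio of labelled Smad4cKO over labelled control in the female pair (x axis) and in the male pair (y axis) for all 21243 genes tested (grey), 9 claudin members (red, named) and 10 other tested claudins (green circles). Cldn1 (-1.11 and -1.02) and Cldn13 (-0.75 and -0.73) lie toward the lower left, and the other named claudins lie between -0.24 and 0.44 on both axes.

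Over the 9 measured members, 4 had positive and 2 negative ratios on both arrays, and 3 (Cldn4, Cldn7 and Cldn12) changed sign. Of all 21243 genes, 19.9% were brighter and 19.8% dimmer on both arrays and 60.3% changed sign. With median centring 5 were brighter and 1 was dimmer. Limma called 0 of the 9 at an adjusted p of 0.05, where 0.00471% of all genes were called. At an unadjusted p of 0.05 it picked 1 brighter member, Cldn3, against 2.14% of all genes, and 1 dimmer, Cldn1, against 2.97%. By a rule of 1.5-fold in 1 direction on both arrays, Cldn1 alone was dimmer, where 0.523% of all genes were, and 0 members were brighter, where 0.49% of all genes were. In opposite directions on the arrays, 0 members passed 1.5-fold, where 1.25% of all genes did. As the list was drawn up with this comparison known, nothing is read from these counts. The median log2 ratio over the 9 members was 0.14, with 0.22 on array 1 and 0.06 on array 2. Without Cldn1 it was 0.15.

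The array held 14 further claudin names. Of these, 10 were bright enough to test, 3 of them brighter and 4 dimmer on both arrays, with a median of -0.03. Cldn2, Cldn16, Cldn18 and Cldn22 were not well above background in any channel. Cldn13, a claudin of rodents that has no human counterpart, was the most different. Its signals were 67.9 in the channel labelled Smad4cKO against 157.4 in the female pair, and 60.4 against 139.2 in the male pair. Both labelled control channels lay above both labelled Smad4cKO channels. Its log2 ratios were -0.75 and -0.73 (mean -0.74 ± 0.13, SE, n = 2, limma adjusted p = 0.204 over all genes), so it was not called. It was the 1 of the 10 dimmer by 1.5-fold on both arrays, where 0.523% of all genes were.

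Cldn10a gave 0.34 and 0.18 but was well above background in 3 of 4 channels, at signals of 40.0 to 63.8. Cldn9, beside Cldn6 in the genome, gave 0.27 and 0.15, close to Cldn6's 0.40 and 0.11. Their probes are 1.1 kb apart on chromosome 17. Cldn17, whose probe lies 54.9 kb from that of Cldn8 on chromosome 16, gave 0.09 and 0.30, near Cldn8's 0.06 and 0.28, at a dim signal of 46.1 to 65.1. From processed signals Cldn17 gave 0.28 and 0.50, against 0.07 and 0.29 for Cldn8. Of the 21243 genes, 278 lay within 0.1 of Cldn6 on both arrays and 560 within 0.1 of Cldn8, so nothing is read from these likenesses.

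On chromosome 5, Cldn13, Cldn4 and Cldn3 lie in this order, with gaps of 30.6 and 41.9 kb on either side of the dimmer Cldn4 probe, and their mean log2 ratios were -0.74, -0.02 (0.04 at the dimmer Cldn4 probe) and 0.34. Cldn13 and Cldn3, at the ends of this cluster, had ratios of opposite sign on both arrays. The probes of Cldn13, chr5:135390710-135390769, and of Cldn4, chr5:135422135-135422194 (both mm9, minus strand), are shown because close paralogs could share signal. Capitals mark each copy of the longest run they share, 7 bases, which occurs at 2 places in the Cldn13 probe.
Cldn13 probe: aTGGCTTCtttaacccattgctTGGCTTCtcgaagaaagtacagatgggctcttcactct
Cldn4 probe: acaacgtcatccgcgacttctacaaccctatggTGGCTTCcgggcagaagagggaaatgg

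Across the 10 member probes, the longest run shared with a probe of any other claudin was 7 to 10 bases of 60, and 0 of them shared 20 bases with any probe on the array. Their GC content ran from 35.0% to 55.0%.

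Other genes of the tight junction had ratios nearer 0 than that of Cldn1. Of 16 tested genes for membrane proteins of the junction, 8 were brighter and 2 dimmer on both arrays (median 0.11). Ocln, which encodes occludin, gave 0.16 and 0.15, and Jam2, an adhesion molecule of endothelial junctions, 0.42 and 0.21. Cxadr, the coxsackievirus and adenovirus receptor (-0.23 and -0.22), and Pmp22, a claudin-like protein of myelin (-0.16 and -0.46), were the dimmer ones. Of 25 scaffold and regulator genes, 6 were brighter and 7 dimmer (median -0.03). Amotl2, an angiomotin-like scaffold, gave -0.52 and -0.26. Wnk4, a kinase that phosphorylates claudins, gave 0.20 and 0.34, and Tjp3, which encodes the scaffold ZO-3, gave 0.27 and 0.14. Tjp1, for ZO-1, gave -0.26 and 0.20 and so changed sign between the arrays. Limma called 0 genes of either list, against 0.00471% of all genes. At an unadjusted p of 0.05 it picked 1 dimmer scaffold gene, Amotl2, where 2.97% of all genes were picked, and 0 others.

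Of 16 tested adherens junction and desmosome genes, 6 were brighter and 2 dimmer on both arrays (median 0.06), led by Cdh1 and by Ctnnd1, which encodes p120-catenin (0.39 and 0.13). Of all genes tested, 19.9% were brighter and 19.8% dimmer on both arrays. Among 23 tested regulators of epithelial junction genes, repressors included, 16 were brighter and 2 dimmer (median 0.17). The 2 with the largest ratios, Snai2 (0.35 and 0.68) and Snai1 (0.34 and 0.82), encode repressors of junction genes, and the related repressor gene Zeb1 gave -0.18 and -0.28. Prss8, for the epithelial protease prostasin, gave 0.16 and 0.18. Grhl2, an activator of several claudin genes, gave 0.31 and 0.0013. Limma called 0 genes in these lists, with 2 brighter regulators, Snai1 and Snai2, at an unadjusted p of 0.05 (2.14% of all genes), and 0 genes passed 1.5-fold on both arrays.

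The remaining marker lists had no claudin member. Of 12 mesenchymal and smooth muscle genes 9 were brighter and 0 dimmer on both arrays. Their median was 0.12 in the female pair and 1.24 in the male pair. By 1.5-fold on both arrays 5 of the 12 were brighter, where 0.49% of all genes were. They were led by Myh11 (2.08 and 2.66), Cnn1 (1.65 and 2.17), Actg2 (1.42 and 2.08) and Acta2 (1.03 and 2.14). The collagen genes Col1a1 (-1.37 and 1.44) and Col3a1 (-1.14 and 1.03) passed 1.5-fold in opposite directions. Of 9 nephric and kidney genes 2 were brighter and 3 dimmer, with medians of 0.09 and -0.10, and of 6 macrophage genes 3 were brighter and 0 dimmer, with medians of 0.32 and 0.03.

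**Figure D3:**
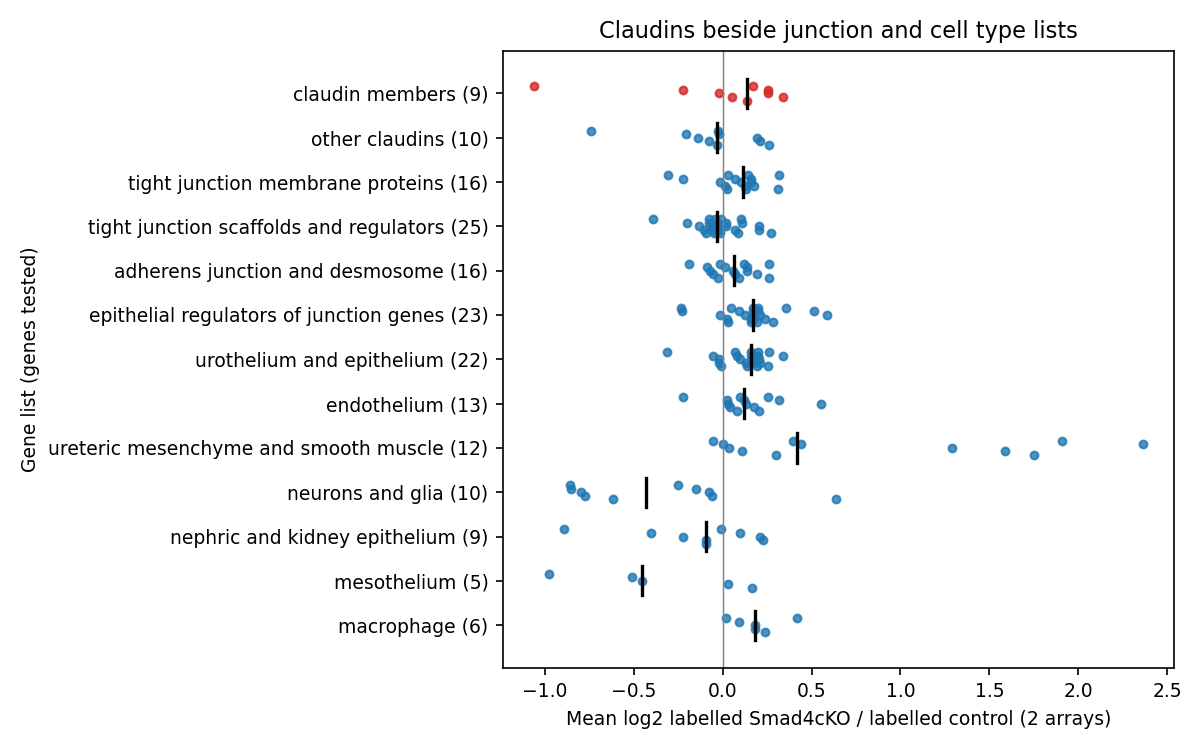
Mean log2 ratio of labelled Smad4cKO over labelled control (x axis) of each tested gene in the claudin lists, the junction lists and the lists of cell type markers, with the number of genes in brackets and a black bar at each median. The claudin members (red) centre at 0.14 with Cldn1 apart at -1.06, while the mesenchymal and smooth muscle list reaches 2.37.

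**Figure D4:**
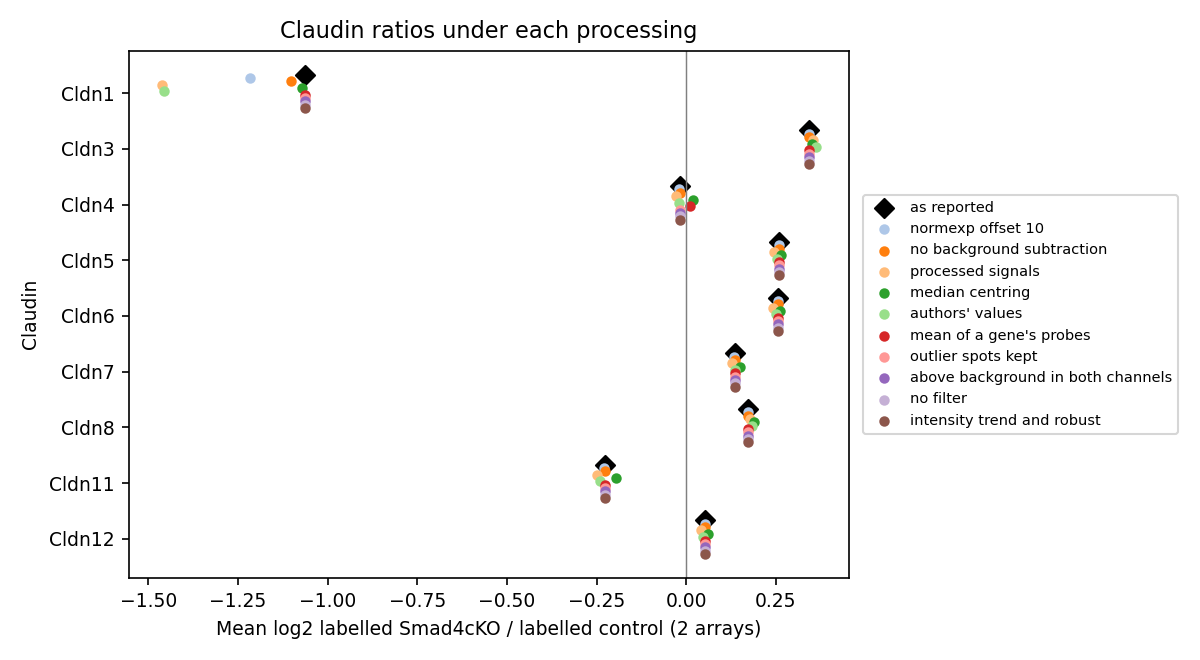
Mean log2 ratio of each claudin as reported (black diamonds) and under 10 other processing settings (coloured points). Cldn1 runs from -1.46 to -1.06, and Cldn4, near 0, is the member whose mean crosses 0.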

How the data were processed

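Ureter RNA of mutant and control, female on one array and male on the other, 200 ng of total RNA per channel per the labels' protocols, was measured on 2 two-colour arrays. Per the file headers and the submitters' processing notes, Agilent Feature Extraction 10.7.3.1 produced the deposited intensity values: for every spot, each channel's mean, background median and processed signal. A table of signed folds, deposited by the authors and read as a score per probe, had a median of 1 on each array. It correlated with the processed log ratios at -0.78 and -0.77 and was turned. Its tool is not given here. Mean signals were corrected with normexp (offset 50) and loess within arrays, control spots at weight 0 (limma 3.58.1, R 4.3.3). The 1377 control spots and outlier spots (237 and 221) were left out. Tested probes were well above background in one labelled group, the same on each array, and a gene was represented by its brightest such probe. Ratios were tested against 0 with limma, Benjamini-Hochberg adjusted over 21243 genes, with 1 residual and 4.9 prior degrees of freedom. The SE rests mostly on the spread pooled over genes. The fit was tested on simulated data. Accessions of 26412 probes were matched to RefSeq symbols (GRCm38.p6). Probe coordinates are those of the files (mm9). The number of arrays limits the precision. Members and gene lists were chosen with earlier results of these data known. All members are named, and of each list up to 4 genes with 1 sign on both arrays, by the smaller absolute ratio. Smad4, Tbx18 and Id1 check the labels. Col1a1, Col3a1, Krt5, Tjp1, Grhl2, Upk3b, Msln, Krt19 and Sox10 fall outside this rule and were chosen after their values were seen.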

Additional observations from a re-analysis of the deposited data

Results flagged for a closer look

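Dye orientation and sex changed together between the arrays, and 3 claudins had ratios of opposite sign in the female and the male pair. Cldn4 gave -0.10 in the female pair and 0.063 in the male pair. Cldn7 gave 0.40 and -0.13, and Cldn12 gave 0.22 and -0.12. With 1 array per sex the difference was not tested, and sex and dye cannot be told apart. With median centring in place of loess, Cldn7 (0.06 and 0.24) and Cldn12 (0.05 and 0.07) had 1 sign on both arrays, while Cldn4 did not (-0.39 and 0.43). Over all 21243 genes, 12803 (60.3%) changed sign between the arrays, and the ratios of the 2 arrays had a Pearson correlation of -0.07 across genes, which are not independent replicates. This limits every direction drawn from 2 arrays.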

How the results depend on the processing

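Under 10 other settings, the mean ratio of 8 of the 9 claudins kept its sign, all but Cldn4. That of Cldn4 ran from -0.03 to 0.02. Cldn1 was dimmer by over 1.5-fold on each array in 10 of 10 settings, with means from -1.46 to -1.06 and adjusted p from 7.76e-12 to 1 (0.117 as reported). Limma's count of called claudins rose from 0 to 1, in each case Cldn1, with normexp offset 10, from processed signals, from the authors' values, and with limma's trend and robust options. Those settings called 68, 305, 145 and 706 of 21243 genes. The median over the claudins moved by less than the spread between arrays, and without 1 array it ran from 0.06 to 0.22, as values with no test. The count has no value with 1 array left. The slide as a block was not run, because both arrays lie on 1 slide. No paired analysis was possible because the arrays form 1 group and each already pairs a mutant with a control. Counts and medians of the other gene lists were computed as reported and not under the other settings. Cldn1, Cldn13, Cldn10a and Cldn17 were dim, and their ratios from processed signals were farther from 0 on both arrays. Cldn14 and Cldn15, also dim, were counted above as dimmer on both arrays. From processed signals both changed sign, Cldn14 at -0.01 and 0.06 and Cldn15 at -0.39 and 0.01.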
